A study of Mus musculus with 9 samples.

Results

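The genes of hepatic fatty acid oxidation and other targets of the nuclear receptor PPAR-alpha were examined in mouse liver RNA-seq data: 35 genes, chosen by name, of the 32285 genes in the table. All 35 passed the filter on low values (a mean of at least 10 normalized counts), which kept 12100 genes for testing. They were placed in 6 steps: the receptor itself (1 gene), fatty acid uptake, binding and activation (5 genes), mitochondrial oxidation (15 genes), peroxisomal oxidation (6 genes), acyl-CoA thioesterases (4 genes) and Cyp4a omega-oxidation (4 genes). The livers came from Tet-OFF mice, 4 weeks of age, in 3 groups of 3 libraries: Control, Dox (doxycycline) and Tc (tetracycline). Dox and Tc were each given at 2 mg/mL in drinking water with 10 mg/mL sucrose for 7 days, and whether the controls drank sucrose water was not given in the sources used here. Mice of every group, controls included, carried PB CAG-CreERT2, Rosa26-LSL-tTA and Rosa26-tetO-Venus-ires-mCherry and received tamoxifen, which activates CreERT2 in all tissues through the ubiquitous CAG promoter. Without a drug, tTA keeps Venus on in this system, and Dox or Tc turns it off. An effect of a drug on the liver and an effect of switching off tTA activity therefore cannot be told apart in these groups. The mice were derived from V6.5 embryonic stem cells, and males were used by the methods of the study.

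PPAR-alpha is activated by fatty acids and, as a heterodimer with a retinoid X receptor, binds direct repeats of a 6-base sequence and raises the transcription of genes for fatty acid breakdown. Mitochondria oxidize most fatty acids: Cpt1a and Cpt2 carry acyl groups across the mitochondrial membranes, and a cycle of dehydrogenases, hydratases and thiolases removes acetyl-CoA. Peroxisomes shorten very long chains and dicarboxylic acids, which arise when Cyp4a enzymes hydroxylate the omega end of a fatty acid. In rodents, fasting and PPAR-alpha agonists are known to raise Cyp4a10, Cyp4a14, Ehhadh, Acot1 and Acot2.

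Values are gene counts divided by a size factor for each library, called normalized counts here. Log2(normalized count + 1) was fitted with limma over all 9 libraries, and a gene was called differentially expressed at a Benjamini-Hochberg adjusted p under 0.05 over the 12100 genes and a fold change over 2. Libraries held 7426136 to 12183041 recovered reads, and every one of the 35 genes had at least 27 reads in each library. In every group, the third library could be written nearly as a sum of weighted libraries 1 and 2, with fitted weights of 58.4% and 41.7% in controls, 61.3% and 34.5% with Dox, and 61.2% and 36.9% with Tc. Where libraries 1 and 2 differed over 2-fold, library 3 lay between them for 5 of 5 of the 35 genes in controls, 20 of 20 with Dox and 8 of 8 with Tc. The 3 libraries of a group therefore cannot be counted as 3 independent livers. To that extent, adjusted p-values and SEs over all 9 libraries are too small and intervals too narrow. Limma calls of the 35 genes and of other pathway genes with all 9 libraries are also given without libraries 3. Dox library 2 stood apart from Dox library 1: 17.7% of all genes tested were over 2-fold higher in it and 17.6% over 2-fold lower. Fits without Dox library 2 keep Dox libraries 1 and 3, and library 3 has a fitted weight of 61.3% on library 1. These 2 libraries are not independent livers, so adjusted p-values of those fits are also too small.

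Hepatocyte markers were abundant in every library, with summed levels of 1278613 to 1765177 normalized counts in controls, 675464 to 902996 with Dox and 909006 to 1422460 with Tc over 10 genes. Alb made up most of the control sums, with 1408836, 956160 and 1246646 in control libraries 1, 2 and 3 and 607453, 255548 and 456395 with Dox. With Dox, 7 of the 10 lay below 0, and 3 lay above: Tat, Cps1 and Hnf4a (log2 differences 1.71, 0.69 and 0.37). Summed Kupffer cell markers (10 genes) ranged from 9880 to 18016 in controls, 2746 to 9216 with Dox and 4844 to 9512 with Tc, and 3 of the 10 were called lower with Dox (limma, all 9 libraries), of which DESeq2 without libraries 3 called Clec4f (adjusted p = 0.0187) and not Adgre1 or Csf1r (0.152 and 0.273). Summed sinusoidal endothelial markers (10 genes) were 6128 to 6467, 3358 to 3947 and 5006 to 5725 in the same order. All 10 had log2 differences below 0 with Dox, and Stab2 was called lower (-1.22, limma adjusted p = 0.00468). Without libraries 3, Stab2 had a DESeq2 adjusted p of 0.00469. Summed neutrophil markers (10 genes) ranged from 5194 to 6385 in controls, 29 to 531 with Dox and 159 to 16304 with Tc. Lcn2 alone made up most of each sum, with 5136, 5041 and 6067 normalized counts in controls and 16169 in Tc library 2, the highest. The other neutrophil markers had at most 41.4 in that library and at most 147.7 in controls. The median log2 difference with Dox was -2.96 over the 6 tested, of which Mpo was called lower (limma). Without libraries 3, Mpo had a DESeq2 adjusted p of 0.0305. Summed erythroid markers (8 genes in the table) were 1543 to 6101, 827 to 2538 and 1357 to 2161, and 4 of the 7 tested were called lower with Dox by limma, with a median of -1.80. Of these 4, Slc4a1 and Hbb-bt had DESeq2 adjusted p of 0.00518 and 0.0473 without libraries 3, and Hba-a1 and Hba-a2 0.198 and 0.196. Alas2 and Klf1 lay the other way with Dox (log2 differences 0.86 and 1.51). Alas2 held 1368 normalized counts in Dox library 1 and 1212 in Tc library 1, the libraries with the highest sums of their groups. Summed adipocyte markers (9 genes) were 230 to 248 in controls, 325 to 420 with Dox and 234 to 262 with Tc. Lep and Retn were at 0 in every library and Adipoq and Plin1 did not exceed 2.7, while 2 of the 4 adipocyte markers tested, Plin4 and Cidec, were called higher with Dox (log2 differences 1.34 and 2.57, limma adjusted p = 0.0473 and 0.0425). Without libraries 3, both had a DESeq2 adjusted p of 0.237. Limma without libraries 3 called 0 of all 12100 genes, so none of these markers passed with it. In bulk liver, fewer cells of a type and less RNA per cell cannot be told apart, and the part of these cell markers in the results below was not tested.

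Of the 35 genes, 2 were called in Dox against Control, 0 in Tc against Control and 0 in Dox against Tc by limma with all 9 libraries. Acot1 rose and Ehhadh fell with Dox. The share called in Dox against Control (5.71%) was close to the 5.0% of all 12100 genes, with 1.14% of all genes called higher and 3.86% lower. In Tc against Control and Dox against Tc, 0.165% and 0.215% of all genes were called. At an unadjusted limma p under 0.05, 8, 5 and 3 of the 35 genes (22.9%, 14.3% and 8.57%) passed in the 3 comparisons, beside 29.1%, 11.7% and 21.7% of all genes. With all 9 libraries, edgeR called 2, 0 and 0, beside 5.52%, 0.174% and 0% of all genes. DESeq2 with all 9 libraries called 6, 1 and 2 of the 35, beside 9.37%, 1.58% and 5.03% of all genes. Without libraries 3, limma and edgeR called 0 of the 35 in each comparison, but they also called 0 of all 12100 genes. At an unadjusted p under 0.05, 2, 1 and 1 of the 35 passed with limma, beside 8.6%, 1.98% and 3.75% of all genes. With edgeR 3, 1 and 1 passed, beside 8.79%, 2.07% and 4.46%. DESeq2 without libraries 3 called Acot1 in Dox against Control and none of the others, beside 1.19% of all genes in that comparison. With Dox the 35 genes did not move together in 1 direction: 18 had log2 differences above 0 and 17 below. With Tc more lay above 0 (24) than below (11), where 6109 and 5989 of all genes tested did. The median log2 difference of the 35 genes was 0.06 with Dox and 0.21 with Tc, and that of all genes tested was 0.00 in both comparisons. With the same total per library in place of the size factors, all genes shifted by 0.17 (log2) in Dox against Control and the 35 genes had a median of 0.24. Dox and Tc were compared with the same control libraries, so the 2 comparisons are not independent of each other.

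**Figure D1:**
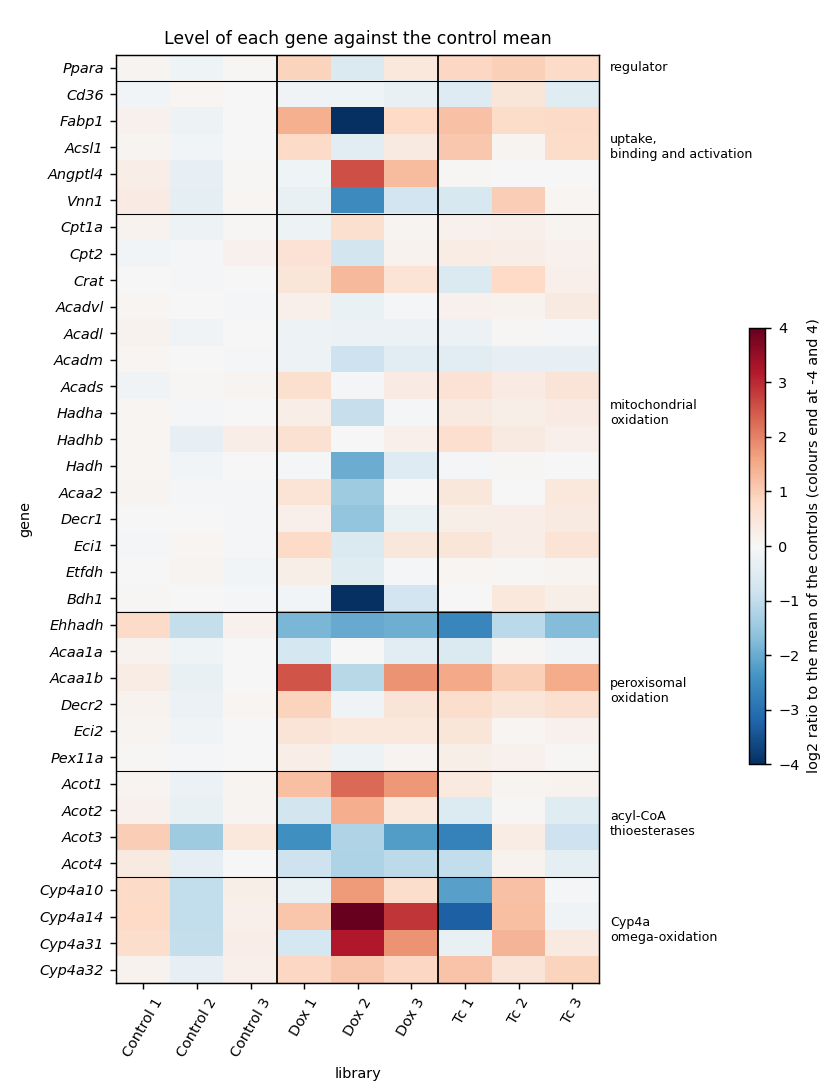
Log2 ratio of each gene to the mean of the control libraries, for the 35 genes (rows, grouped by step) in the 9 libraries (columns). Red is above and blue below the controls, and colours end at -4 and 4; Dox library 2 stands out with high Angptl4, Cyp4a14 and Cyp4a31 and low Fabp1 and Bdh1, while Ehhadh is below the control mean in all 6 drug libraries.

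RefSeq windows (GRCm38.p6) from 250 bases before to 50 bases after the transcription start were at hand for 27 of the 35 genes. A direct repeat of AGGTCA spaced by 1 base, the type of element that PPAR-alpha and retinoid X receptors bind, was searched on both strands, counting matches over its 12 fixed bases. At least 10 of 12 bases matched in 3.86% of all 32851 windows and in 3 of the 27 genes: Fabp1 (11 of 12), Cd36 (10 of 12) and Acot4 (10 of 12). The windows around these matches are shown because they are the closest to the motif, with the 13 matched bases in capitals, in the orientation of the gene. They lie at chr6:71199788-71199848, plus strand, chr5:17835923-17835983, minus strand, and chr12:84038342-84038378, plus strand, and the match is on the opposite strand of the gene in all 3.
Fabp1: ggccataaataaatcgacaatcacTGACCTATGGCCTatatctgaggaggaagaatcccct
Cd36: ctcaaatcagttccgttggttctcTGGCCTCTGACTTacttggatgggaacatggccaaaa
Acot4: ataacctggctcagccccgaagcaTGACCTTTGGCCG
The 250 bases upstream of the 2 called genes, Acot1 (chr12:84009252-84009501, plus strand) and Ehhadh (chr16:21787835-21788084, minus strand), are shown for comparison. Their best match, in capitals, reached 8 of 12 bases, a level that 79.8% of all windows reached, so these windows hold no more of the motif than most promoters do.
Acot1: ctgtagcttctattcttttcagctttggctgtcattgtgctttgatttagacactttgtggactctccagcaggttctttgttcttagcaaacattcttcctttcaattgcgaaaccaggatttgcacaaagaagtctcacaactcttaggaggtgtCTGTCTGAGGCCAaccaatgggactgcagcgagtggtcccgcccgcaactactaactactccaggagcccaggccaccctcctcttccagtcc
Ehhadh: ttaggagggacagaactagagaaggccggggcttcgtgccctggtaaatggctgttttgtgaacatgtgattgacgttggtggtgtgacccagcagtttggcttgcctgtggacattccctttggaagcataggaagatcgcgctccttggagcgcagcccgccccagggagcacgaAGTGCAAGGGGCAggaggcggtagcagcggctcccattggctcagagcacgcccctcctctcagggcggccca
A match is a description of letters in this window. It is not a measured binding site, and elements further from the start were not searched.

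Ppara, which encodes the receptor (chromosome 15, 85734983 to 85802819, plus strand in GRCm38), had 1653, 1367 and 1601 normalized counts in control libraries 1, 2 and 3, 2866, 1020.3 and 2070.1 with Dox and 2735, 2964 and 2638 with Tc. The 3 Tc libraries lay above all controls, and the Dox libraries lay on both sides of them. The log2 difference was 0.25 ± 0.32 (SE) for Dox and 0.85 ± 0.32 for Tc, with adjusted p of 0.636 and 0.381 (limma). Without Dox library 2 the Dox difference became 0.67, with an adjusted p of 0.0218 but under the 2-fold limit.

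Among the 5 genes of uptake, binding and activation, limma called 0 in either direction, and their median log2 difference was -0.20 with Dox and 0.15 with Tc. Fabp1, the main fatty acid binding protein of hepatocyte cytosol, whose promoter window held the closest motif match, had 1669, 1296 and 1499 normalized counts in control libraries 1, 2 and 3, 3920.3, 31.1 and 2571 with Dox and 3336, 2441 and 2526 with Tc. Dox library 2 held 2.09% of the control mean, while Dox libraries 1 and 3 lay above all controls, as did the 3 Tc libraries. The log2 difference with Dox was -1.11 ± 1.52 (adjusted p = 0.652, limma) and turned to 1.10 without Dox library 2 (adjusted p = 0.01, limma). In that fit 9.11% of all genes were called in Dox against Control. DESeq2 and edgeR with all 9 libraries gave 0.55 and 0.54 (adjusted p = 0.788 and 0.758), so the sign of its Dox difference turned both with 1 library and with the tool. Its Tc difference was 0.89 ± 1.52 (adjusted p = 0.878, limma).

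Angptl4, a secreted inhibitor of lipoprotein lipase, had 1125, 751 and 969 normalized counts in control libraries 1, 2 and 3, 824.5, 5550.2 and 2231 with Dox and 961, 942 and 921 with Tc. The Tc libraries lay within the control range, and the high Dox values were those of libraries 2 and 3. The Dox difference of 1.21 ± 0.56 did not pass with limma (adjusted p = 0.191) but passed with DESeq2 over all 9 libraries (adjusted p = 0.0226), and without Dox library 2 it was 0.54. Vnn1, a pantetheinase of the coenzyme A breakdown pathway, had 496, 302 and 422 normalized counts in control libraries 1, 2 and 3, 323, 67.9 and 235 with Dox and 257, 789.6 and 425 with Tc. Its lowest level was in Dox library 2 and its highest in Tc library 2, and neither drug difference passed (limma adjusted p = 0.213 for Dox and 0.955 for Tc). Acsl1, which activates long-chain fatty acids with coenzyme A, had log2 differences of 0.23 ± 0.33 with Dox and 0.64 ± 0.33 with Tc. Cd36, a fatty acid transporter of the plasma membrane, had -0.20 ± 0.25 and -0.18 ± 0.25, and neither gene passed in a comparison.

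**Figure D2:**
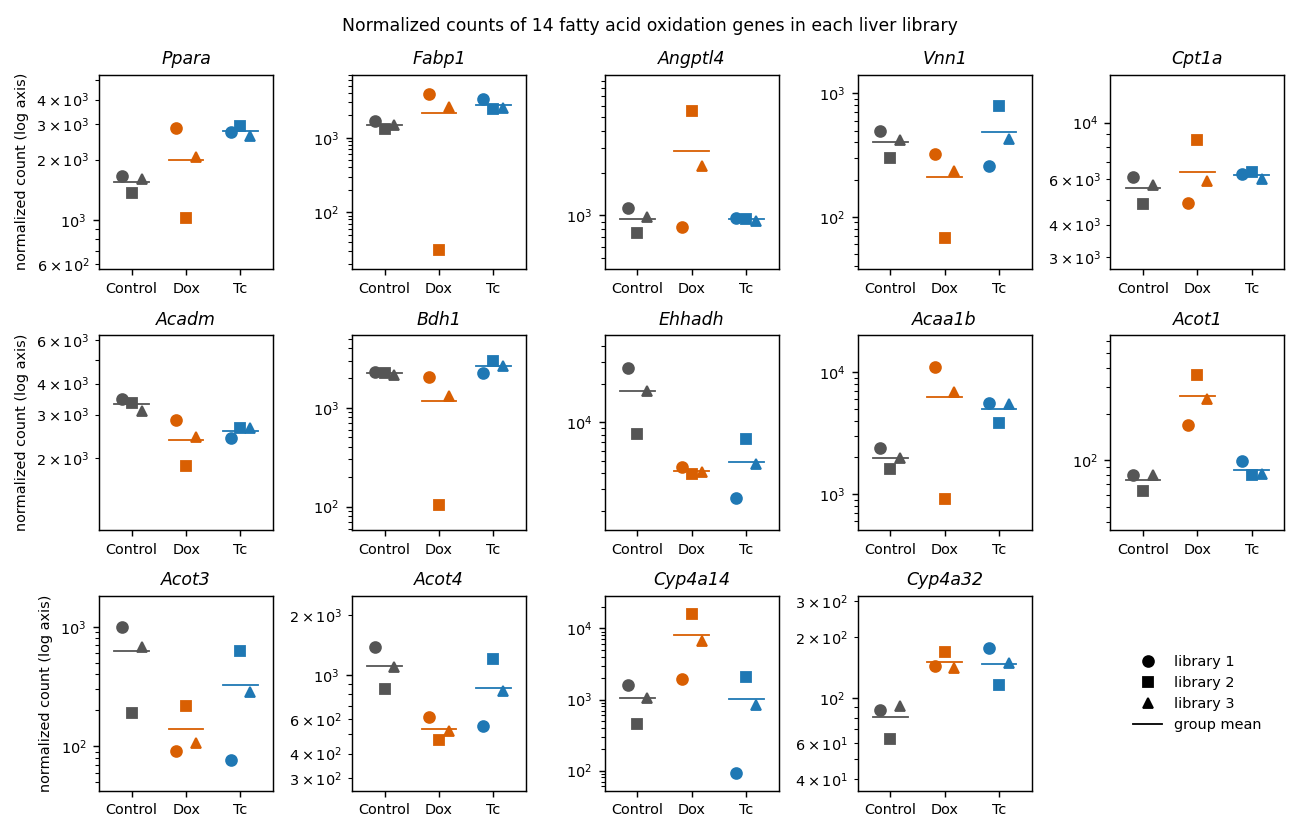
Normalized counts (log axis) of the 14 genes given in full, by group, with library 1 as a circle, library 2 as a square, library 3 as a triangle and the group mean as a line. The 3 Dox libraries lie above all others for Acot1, the 6 drug libraries lie below all controls for Ehhadh, and Dox library 2 sets the Dox spread of Fabp1, Bdh1, Acaa1b and Angptl4.

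None of the 15 genes of mitochondrial oxidation was called in any of the 3 comparisons by limma or DESeq2 with all 9 libraries. Their log2 differences ran from -1.76 to 0.77 with Dox (median -0.11, 5 above and 10 below 0) and from -0.36 to 0.47 with Tc (median 0.23, 12 above and 3 below 0). Cpt1a, the entry step that controls fatty acid flow into mitochondria, had 6120.4, 4835 and 5717 normalized counts in control libraries 1, 2 and 3, 4839.5, 8547 and 5917 with Dox and 6284, 6393 and 5998 with Tc. The groups overlapped, with the highest value in Dox library 2, and the log2 differences were 0.18 ± 0.22 with Dox and 0.17 ± 0.22 with Tc (limma adjusted p = 0.612 and 0.829). Acadm, the medium-chain acyl-CoA dehydrogenase, had 3473, 3346 and 3106 normalized counts in control libraries 1, 2 and 3, 2854, 1858 and 2439 with Dox and 2415, 2651 and 2646 with Tc. All 6 drug libraries lay below the 3 controls, with log2 differences of -0.49 ± 0.17 and -0.36 ± 0.17 that did not pass (limma adjusted p = 0.101 and 0.457).

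Bdh1, which reduces acetoacetate to the ketone body beta-hydroxybutyrate, had 2299, 2251.5 and 2151 normalized counts in control libraries 1, 2 and 3, 2059, 105 and 1309 with Dox and 2258, 2990.0 and 2621 with Tc. Controls and Tc libraries were close together, and Dox library 2 held 4.69% of the control mean. The Dox difference of -1.76 ± 0.92 did not pass (limma adjusted p = 0.236) and was -0.44 without Dox library 2. The same library was over 2-fold below Dox library 1 for 7 of the 15 mitochondrial genes and over 2-fold above it for none, where 17.6% and 17.7% of all genes tested were. The 7 were Cpt2, Hadha (the alpha subunit of the trifunctional protein), Hadh (the short-chain hydroxyacyl-CoA dehydrogenase), Acaa2 (a thiolase), Decr1 and Eci1 (needed for unsaturated chains) and Bdh1. Acadvl and Acadl, the very-long-chain and long-chain dehydrogenases, lay between 3051 and 4705.5 and between 1553 and 2043 normalized counts over all 9 libraries. The remaining genes of the step, Crat, Acads, Hadhb and Etfdh, had log2 differences between -0.11 (Etfdh) and 0.77 (Crat) with Dox and between 0.08 (Etfdh) and 0.47 (Acads) with Tc. Of the read-length windows of Hadhb transcripts, 15.7% are shared with other annotated genes, so its count is less certain.

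Of the 6 genes of peroxisomal oxidation, Ehhadh fell with Dox and the other 5 were not called by limma with all 9 libraries. Ehhadh encodes the bifunctional enzyme that performs the hydratase and dehydrogenase steps in peroxisomes (chromosome 16, 21761287 to 21787807, minus strand in GRCm38). It had 26959.5, 8136.5 and 17664.5 normalized counts in control libraries 1, 2 and 3, 4451, 3894 and 4079.6 with Dox and 2555.5, 7393 and 4675 with Tc. All 6 drug libraries lay below the 3 controls, although control library 2 was only slightly above Tc library 2. The log2 difference was -1.93 ± 0.48 with Dox (adjusted p = 0.0436, limma) and -1.82 ± 0.48 with Tc (adjusted p = 0.214, limma), and DESeq2 called both with all 9 libraries (adjusted p = 0.000212 and 0.00531). Without libraries 3 the differences were -1.83 and -1.77 (limma), and neither passed (adjusted p = 0.157 and 1 with DESeq2). Within the controls alone, Ehhadh differed by -1.73 (log2) between library 2 and library 1, nearly as much as between the groups. Per kilobase of exon, Ehhadh had the highest group mean of the 35 genes in controls (5899.6 normalized counts per kb), and it was the sixth with Dox (1389.3) and the fourth with Tc (1635.2).

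Acaa1b, a peroxisomal thiolase, had 2404, 1588 and 1973 normalized counts in control libraries 1, 2 and 3, 11079.5, 914.5 and 6888 with Dox and 5598, 3813 and 5462 with Tc. Every drug library except Dox library 2 lay above all controls. The log2 differences of 1.07 ± 0.78 and 1.32 ± 0.78 did not pass (limma adjusted p = 0.387 and 0.573). Without Dox library 2 both were called, at 2.16 and 1.32 (limma adjusted p = 0.0025 and 0.0179), beside 9.11% and 1.83% of all genes. The Dox libraries left in that fit, 1 and 3, are not independent of each other. Without libraries 3 they were 0.70 and 1.24 and did not pass (limma adjusted p = 0.822 and 1). Its paralog Acaa1a, with which 22.2% of its read-length windows are shared, had log2 differences of -0.39 ± 0.22 and -0.23 ± 0.22. Decr2 and Eci2, which handle unsaturated chains in peroxisomes, had 0.42 ± 0.24 and 0.44 ± 0.14 with Dox and 0.61 ± 0.24 and 0.25 ± 0.14 with Tc. Pex11a, which takes part in peroxisome division, stayed between 383 and 525 normalized counts in all 9 libraries. The step thus held genes that lay in opposite directions within the same libraries, Ehhadh below and Acaa1b above the controls in Dox libraries 1 and 3 and in the 3 Tc libraries.

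The 4 acyl-CoA thioesterases, which release free fatty acids from coenzyme A, lie in a tandem cluster on chromosome 12, and 1 of them, the cytosolic Acot1, rose with Dox. Acot1 (chromosome 12, 84009490 to 84018371, plus strand in GRCm38) had 80.4, 63.7 and 80.1 normalized counts in control libraries 1, 2 and 3, 171, 360.0 and 249.9 with Dox and 98.6, 80.0 and 81.7 with Tc. The lowest Dox library was above the highest library of the other 2 groups, and the Tc libraries overlapped the controls. The log2 difference was 1.73 ± 0.26 with Dox (adjusted p = 0.0114, limma) and 0.21 ± 0.26 with Tc (adjusted p = 0.821, limma). Without libraries 3 it was 1.78 with Dox and did not pass with limma (adjusted p = 0.559), but passed with DESeq2 (adjusted p = 0.0294). Without Dox library 2 it was 1.46 and still called (adjusted p = 0.00398, limma), beside 9.11% of all genes. Acot1 is a low-level gene, with 19.1 normalized counts per kb in controls, the lowest of the 35.

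Acot2, the mitochondrial thioesterase next to it, had 83.6, 60.2 and 80.1 normalized counts in control libraries 1, 2 and 3, 44.2, 205 and 98.5 with Dox and 49.8, 76.4 and 52.2 with Tc. Only Dox library 2 and Dox library 3 were above all controls. Acot3, a peroxisomal enzyme, had 999, 189 and 678 normalized counts in control libraries 1, 2 and 3, 90.6, 219 and 106 with Dox and 76.2, 621 and 285 with Tc, so that control library 1 held 5.28 times the level of control library 2. Its log2 difference with Dox, -1.97 ± 0.82, passed with DESeq2 (adjusted p = 0.022) but not with limma (adjusted p = 0.156), and with Tc it was -1.08 ± 0.82 (limma adjusted p = 0.681). Acot4, a peroxisomal succinyl-CoA thioesterase, had 1389, 847 and 1091 normalized counts in control libraries 1, 2 and 3, 609.7, 467 and 523 with Dox and 555, 1204 and 826 with Tc. Its 3 Dox libraries lay below all controls, and the Dox difference of -1.03 ± 0.29 passed with DESeq2 over all 9 libraries (adjusted p = 0.0089) but not with limma (adjusted p = 0.0594). Without libraries 3, Acot3 and Acot4 had DESeq2 adjusted p of 0.522 and 0.454. Acot1 shares 13.9% of its read-length windows with Acot2, Acot3 and Acot5, Acot2 shares 19% and Acot3 15%. Only uniquely mapped reads were counted, so reads from shared windows may be missing from the counts of these genes.

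**Figure D3:**
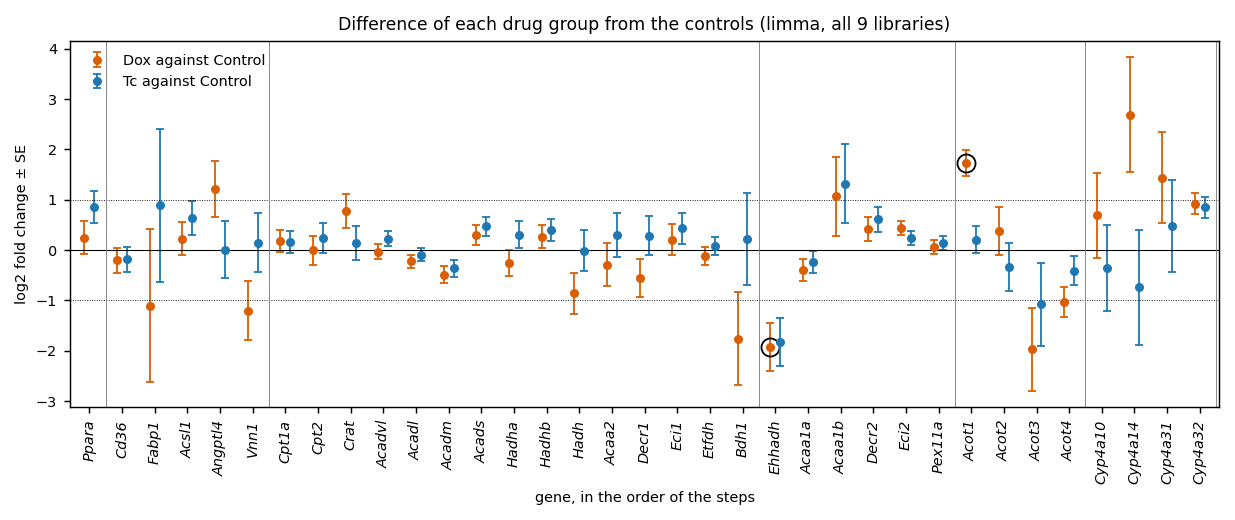
Log2 fold change with its SE for each of the 35 genes in Dox against Control and Tc against Control (limma, all 9 libraries), in the order of the steps; circled points passed the adjusted p and the 2-fold limit (dotted lines). The mitochondrial genes other than Bdh1 lie within the dotted lines, and Acot1 and Ehhadh with Dox are circled.

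No gene of Cyp4a omega-oxidation was called by limma with all 9 libraries, and this step had the widest spread between libraries. Cyp4a14, a fatty acid omega-hydroxylase, had 1597, 455 and 1050.2 normalized counts in control libraries 1, 2 and 3, 1967, 15764 and 6654 with Dox and 93.7, 2082 and 837 with Tc. Dox library 2 held 8.01 times the level of Dox library 1, and Tc library 2 held 22.2 times that of Tc library 1. The log2 difference with Dox was 2.69 ± 1.14 (adjusted p = 0.16, limma; adjusted p = 0.0412, DESeq2) and that with Tc was -0.74 ± 1.14 (adjusted p = 0.859, limma). Without libraries 3 the DESeq2 adjusted p with Dox was 0.534. Cyp4a10, which acts on lauric and arachidonic acid, had 4319, 1289.9 and 3045 normalized counts in control libraries 1, 2 and 3, 2095, 8268 and 4131.5 with Dox and 573, 5789 and 2436.5 with Tc. Its library order followed that of Cyp4a14 in the control and Tc groups and with Dox, with library 1 the highest in controls and library 2 the highest with Dox and Tc.

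Cyp4a31 had 136.5, 43.3 and 100.4 normalized counts in control libraries 1, 2 and 3, 51.6, 786 and 296.5 with Dox and 68.4, 218.5 and 109 with Tc, and its high value was again in Dox library 2. Cyp4a32 had 86.8, 62.8 and 91.5 normalized counts in control libraries 1, 2 and 3, 143, 169 and 141 with Dox and 176, 115 and 148 with Tc, with all 6 drug libraries above the 3 controls and little spread within a group. Its log2 differences were 0.92 ± 0.21 with Dox (adjusted p = 0.0346, limma) and 0.85 ± 0.21 with Tc (adjusted p = 0.183, limma), both under the 2-fold limit. Read-length windows shared with other genes made up 23.1% of Cyp4a32, 15.2% of Cyp4a10, 10.1% of Cyp4a31 and 0% of Cyp4a14, so the values of the first 3 are less certain.

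The steps were set side by side by the position of whole groups and by their medians. With Dox, 5 of the 35 genes (14.3%) lay above all controls in all 3 libraries (Crat, Eci2, Acot1, Cyp4a14 and Cyp4a32), where 16.1% of all genes tested did. Another 6 (17.1%) lay below all controls (Cd36, Acadl, Acadm, Bdh1, Ehhadh and Acot4), where 17.1% of all genes did, so both shares were close to the background. With Tc, 12 of 35 (34.3%) lay above all controls, where 15.8% of all genes did, and 2 (5.71%), Acadm and Ehhadh, lay below, where 14.9% did. The 12 were Ppara, Fabp1, Acsl1, Acadvl, Acads, Hadha, Decr1, Eci1, Acaa1b, Decr2, Pex11a and Cyp4a32, of which 5 belong to the mitochondrial, 3 to the peroxisomal and 1 to the Cyp4a step. None of these 12 was called, and their differences between the group and the controls were 0.15 (Pex11a) to 1.32 (Acaa1b) on the log2 scale. The median log2 difference with Dox was -0.11 for mitochondrial, 0.24 for peroxisomal and 1.18 for Cyp4a genes, and with Tc it was 0.23, 0.20 and 0.06. Without Dox libraries 2 and 3 these Dox medians were 0.22, 0.39 and 0.27, so the sign of the mitochondrial median and most of the Cyp4a median depended on those libraries. With the same total per library and all 9 libraries, the mitochondrial median was 0.07, so its sign turned with the scaling too.

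Dox and Tc share the tetracycline ring system and differ in the position of a hydroxyl group, and they were compared at the same concentration and duration. Over this 1 pair of compounds, limma called 0 of the 35 genes with p-values adjusted over 12100 genes, and the 95% interval of the log2 difference excluded 0 before adjustment for 3 of them (8.57%), where 21.7% of all genes had an unadjusted p under 0.05. For 15 of the 35 genes the interval lay within a 2-fold difference in either direction, and for the other 20 it did not, so a 2-fold difference between the compounds was not excluded for those. The intervals rest on all 9 libraries and are too narrow because libraries 3 are not independent livers. They therefore do not settle the question for the 15 either. Acot1 was higher with Dox than with Tc by 1.51 (interval 0.92 to 2.10, adjusted p = 0.0696 with limma and 3.42e-05 with DESeq2), and the groups did not overlap. Cyp4a14 differed by 3.43 (interval 0.83 to 6.03, limma adjusted p = 0.166) and Angptl4 by 1.20 (interval -0.07 to 2.48, adjusted p = 0.249 with limma and 0.038 with DESeq2). Fabp1, Bdh1 and Vnn1 were lower with Dox by -2.00, -1.99 and -1.35 on the log2 scale (intervals -5.45 to 1.46, -4.07 to 0.10 and -2.69 to -0.01), with limma adjusted p of 0.433, 0.245 and 0.229. Without Dox library 2 these differences were 0.21, -0.67 and -0.68, and DESeq2 with all 9 libraries gave Fabp1 -0.35. For Ehhadh the difference between the compounds was -0.11 (interval -1.19 to 0.98), so a 2-fold difference was not excluded. For Cyp4a32 it was 0.06, with an interval of -0.41 to 0.53 that lay within a 2-fold difference. Acot1 lay above all Tc libraries in all 3 Dox libraries, as 12.2% of all genes did, and Hadh, Decr1 and Bdh1 lay below, as 12.4% did. Without libraries 3, DESeq2 gave Acot1 an adjusted p of 0.276 and Angptl4 one of 0.709.

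The same genes also differed between livers that had received the same treatment. In controls, 5 of the 35 genes were over 2-fold lower in library 2 than in library 1 (Ehhadh, Acot3, Cyp4a10, Cyp4a14 and Cyp4a31) and 0 were higher, where 2.15% and 2.69% of all genes tested were. With Tc, 8 were over 2-fold higher in library 2 and 0 lower, where 6.16% and 2.29% of all genes were. These 8 included all 5 of the control genes, and the other 3 were Vnn1, Crat and Acot4. With Dox, 7 were higher in library 2 (Angptl4, Acot1, Acot2, Acot3, Cyp4a10, Cyp4a14 and Cyp4a31) and 13 lower, where 17.7% and 17.6% of all genes were. Cyp4a10 differed by -1.74, 1.98 and 3.33 (log2, library 2 against library 1) in Control, Dox and Tc, and Cyp4a14 by -1.81, 3.0 and 4.46. Ehhadh moved with them in controls and with Tc (-1.73 and 1.53) but not with Dox (-0.19). For the Cyp4a step the median difference between library 2 and library 1 was -1.69 in controls, 2.49 with Dox and 2.5 with Tc, and for the mitochondrial step -0.06, -0.70 and -0.04. These are differences between 2 livers of a group, with no test.

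**Figure D4:**
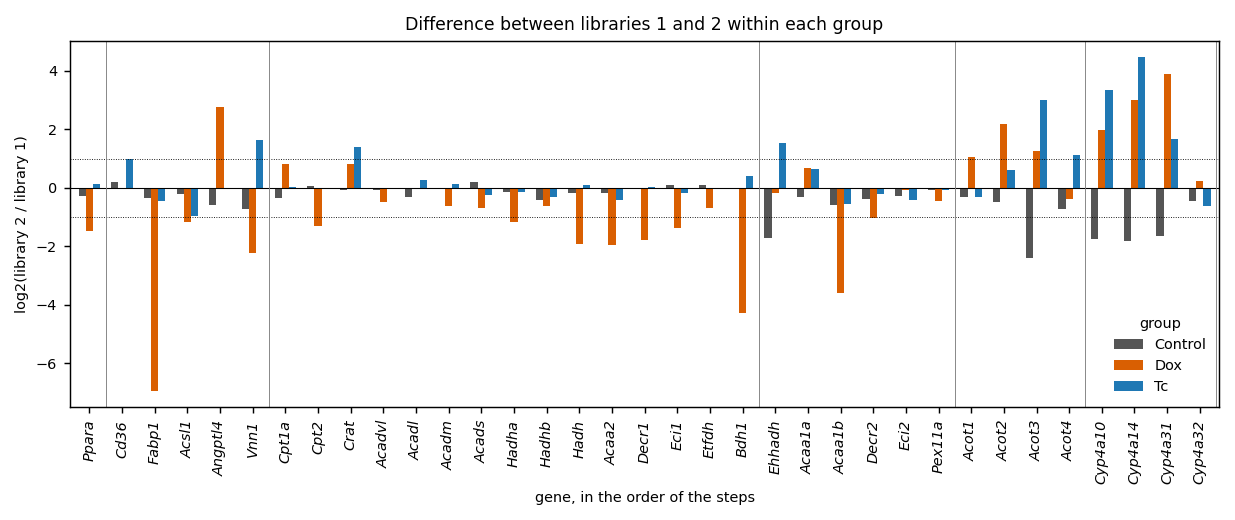
Log2 ratio of library 2 to library 1 within each group for the 35 genes in the order of the steps; bars start at 0 and dotted lines mark a 2-fold difference. The Cyp4a10, Cyp4a14 and Cyp4a31 bars point down in controls and up with Dox and Tc, and most mitochondrial bars beyond the dotted lines belong to Dox.

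Among 104 other genes of these pathways, of which 96 were tested, limma called 7 in Dox against Control, 3 higher and 4 lower, and 1 in Tc against Control, and DESeq2 with all 9 libraries called 14 higher and 4 lower with Dox. In Dox against Tc, limma called 0 and DESeq2 with all 9 libraries called 10 higher and 1 lower, beside 0.215% and 5.03% of all genes. Of all 12100 genes, limma called 1.14% higher and 3.86% lower with Dox, and DESeq2 3.31% and 6.07%. Of 26 other genes of peroxisomal oxidation tested, 2 fell with Dox and 1 fell with Tc. Hacl1, which splits 2-hydroxy acyl-CoA in the oxidation of branched chains, had 8413, 12164.5 and 9933 normalized counts in control libraries 1, 2 and 3, 1638, 1545 and 1572 with Dox and 2026, 2654 and 2427 with Tc, with log2 differences of -2.66 ± 0.17 and -2.09 ± 0.17 (limma adjusted p = 0.000798 and 0.0059). It is the gene of these lists that also passed with DESeq2 in both comparisons without libraries 3 (adjusted p = 1.64e-10 and 6.2e-06). With limma it did not pass in either comparison without libraries 3 (adjusted p = 0.559 with Dox). Abcd2, a peroxisomal importer of very-long-chain acyl-CoA, fell with Dox, from 1413, 632 and 1153 in controls to 55.8, 358 and 169.8 (log2 difference -2.74 ± 0.62, limma adjusted p = 0.0347). None of 13 other mitochondrial genes tested and none of 6 other omega-oxidation genes were called by limma with all 9 libraries, with 3 and 2 at an unadjusted p under 0.05 in Dox against Control. Among those of the 13 with a mean of at least 50, Slc25a42, a mitochondrial coenzyme A carrier, had the largest Dox difference (0.95 ± 0.22, limma adjusted p = 0.0365, under the 2-fold limit). Cpt1b, the muscle form of the entry enzyme and a low-level gene here, had 1.57 ± 0.70 (limma adjusted p = 0.178, DESeq2 adjusted p = 0.0253), with 80.5 and 43.1 normalized counts in Dox libraries 2 and 3 and at most 17.7 in the other libraries. The omega-hydroxylases Cyp4a12a and Cyp4a12b were high in libraries 1 and 3 of both drug groups: Cyp4a12a had 4.2, 49.5 and 42.0 in controls, 6461, 4.6 and 3890.4 with Dox and 2039.9, 0.9 and 1019 with Tc.

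Of 24 other PPAR-alpha targets tested, Cidec and Acsl4 rose with Dox and 0 were called with Tc. Acsl4, an activating enzyme that favours arachidonic acid, had 431, 385 and 414.5 normalized counts in control libraries 1, 2 and 3, 815, 997 and 767 with Dox and 936.5, 664 and 798 with Tc (log2 difference 1.06 ± 0.16 with Dox, limma adjusted p = 0.0114). Cidec, a lipid droplet protein, had 2.1, 10.6 and 3.8 normalized counts in control libraries 1, 2 and 3, 16.8, 71.3 and 27.3 with Dox and 10.7, 10.8 and 6.7 with Tc, a low level in each library (log2 difference 2.57 ± 0.63 with Dox, limma adjusted p = 0.0425). Cidec was also on the list of adipocyte markers given above, on which Plin4 was called higher with Dox too. Pdk4, the kinase that restrains pyruvate dehydrogenase, had 36.0, 42.5 and 25.4 normalized counts in control libraries 1, 2 and 3, 13.7, 1824 and 682 with Dox and 10.7, 31.5 and 18.5 with Tc, and Txnip, a regulator of glucose uptake, had 1279.8, 1332 and 1337.5 normalized counts in control libraries 1, 2 and 3, 719, 21481 and 7926 with Dox and 671, 888 and 714 with Tc. Both were high only in Dox libraries 2 and 3, with log2 differences of 2.92 ± 1.49 and 1.92 ± 1.0 (limma adjusted p = 0.228 and 0.238). Their DESeq2 adjusted p were 0.00257 and 0.00233 with all 9 libraries, and 0.307 and 0.191 without libraries 3. Of 20 receptors and coregulators, Ppargc1b, a coactivator of oxidative metabolism, rose with Dox (1.48 ± 0.31, limma adjusted p = 0.0272) and Rxrg, a retinoid X receptor at low level in liver, fell (-1.16 ± 0.20, limma adjusted p = 0.015). Ppargc1a, a relative of Ppargc1b, had 204, 82.3 and 135 normalized counts in control libraries 1, 2 and 3, 108.5, 1463 and 604 with Dox and 126, 151 and 138 with Tc, again with the high values in Dox libraries 2 and 3 (limma adjusted p = 0.176). For Ppargc1a with Dox, the DESeq2 adjusted p was 0.00732 with all 9 libraries and 0.305 without libraries 3. Without libraries 3, DESeq2 called Hacl1 and none of the other tested genes of these lists in either drug comparison, and the adjusted p of the other 6 called with Dox ran from 0.0604 (Acsl4) to 0.346 (Rxrg).

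Other genes with the 3 largest differences of a list in a comparison (mean of at least 50) are given here, and none of those named passed with limma. In Dox against Control, Oxct1, which activates acetoacetate for ketone body use, had a log2 difference of -1.02 and Pecr, a peroxisomal enoyl-CoA reductase, also had -1.02 (limma adjusted p = 0.103 and 0.214). Pnpla2, the triglyceride lipase of lipid droplets, and G0s2, its inhibitor, had 1.44 and 1.76, and the electron carrier subunit Etfb had -0.68, Acad10 0.57 and Cyp4f15 0.89 (limma adjusted p = 0.137, 0.372, 0.102, 0.156 and 0.0656). DESeq2 with all 9 libraries gave Pnpla2, G0s2 and Cyp4f15 adjusted p of 0.00681, 0.00959 and 0.0125. Without libraries 3 it gave them 0.269, 0.427 and 0.478. In Tc against Control, Cyp7a1, the rate-limiting enzyme of bile acid synthesis, had 1850.3, 786.5 and 1343 normalized counts in control libraries 1, 2 and 3, 945.6, 131 and 640.5 with Dox and 3308, 3966 and 2878 with Tc, so that the 3 Tc libraries lay above all others (limma adjusted p = 0.449 with Tc). The log2 differences of Bdh2, Acat1, Acad12, Acad10, Cyp4f15, Scp2 and Med1 with Tc lay between 0.27 (Med1) and 0.77 (Scp2). In Dox against Tc, Cyp7a1 had -2.96 ± 0.65 and Pnpla2 1.40 ± 0.57 (limma adjusted p = 0.0957 and 0.207). Their DESeq2 adjusted p were 0.000698 and 0.0153 with all 9 libraries, and 0.226 and 0.561 without libraries 3. The remaining ones, Acat1, Oxct1, Etfb, Acad9, Acad12, Cyp4f14 and Pecr, had log2 differences between -1.21 (Cyp4f14) and -0.48 (Acad12).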

How the data were processed

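Liver RNA-seq of 3 groups with 3 libraries each was analysed. The authors trimmed the single-end reads with cutadapt, aligned them to mm10 with STAR, kept uniquely mapped reads, counted them per gene of GENCODE with HTSeq 2.0.5, and deposited a signal: normalized counts, made with DESeq2 1.42.0 by dividing each library's counts by its size factor. For RNA isolation, the sample labels and the supplement of the study name different kits. Gene positions and exon lengths come from GENCODE vM21 (GRCm38).

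Low values in a library were whole multiples of 1 step, which gave back whole reads for 100% of the entries (tolerance 0.01 of a read). Log2(normalized count + 1) was fitted in R 4.3.3 by limma-trend (3.58.1), as 1 model of all 9 libraries, for the 12100 genes whose mean was at least 10. DESeq2 1.42.0 and edgeR 4.0.16 were run on the recovered reads as alternatives, and all 3 tools were tested on simulated data. A fold change on the log2(value + 1) scale understates changes of low genes. Depth was 7426136 to 12183041 reads per library. Counting error was not compared with differences between livers, and it weighs more for genes with few reads, such as Acot1 and Acot2. Their fewest reads in a library were 63 and 42. Nothing in the labels says that libraries of a group came from separate cages or days, so p-values measure the spread between these samples.

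Deviations from the group mean correlated between Dox and Tc libraries of the same number (r = 0.287, 0.321 and 0.182 for libraries 1, 2 and 3) but not with those of controls (from -0.081 to 0.055). The numbers come from the sample labels. Read sharing was measured as the share of 86-base windows, the length of the reads, found in transcripts of other genes.

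The 35 genes, the lists of other genes and the tests were chosen with earlier results of these data known. Genes given in full were those called in any comparison by limma or DESeq2 with all 9 libraries, the 5 with the largest difference in each comparison, and Ppara, Acadm, Cpt1a and Ehhadh. Other genes of the pathway lists were named where they were called or, with a mean of at least 50, among the 3 largest differences of their list in a comparison; those named in the other observations were chosen after their values were seen. Values of some genes of these lists are not reported here. The alternatives covered the pseudocount, the filter, the scaling, the tool, the groups in the fit, a replicate block, the fold limit, libraries 3 and each library left out. Fits without Dox libraries 2 and 3 were added after seeing the data.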

Additional observations from a re-analysis of the deposited data

How the results depend on the processing

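With all 9 libraries in limma, 2 of the 35 genes were called in Dox against Control, 0 in Tc against Control and 0 in Dox against Tc. In Dox against Control the number was 1 with no filter on low values, 6 with DESeq2 and 1 with only the 2 groups compared. Without libraries 3 it was 0 with limma or edgeR, which also called 0 of all 12100 genes, and 1 with DESeq2. It ranged from 0 to 6 when 1 library was left out. Leaving out Dox library 1 gave 6 and Dox library 2 gave 4 (beside 12.4% and 9.11% of all genes), control library 2, control library 3 or Dox library 3 gave 0 (1.02%, 0.273% and 0.719%), and control library 1 or Tc library 3 gave 1 (1.99% and 2.66%). In Tc against Control it was 1 with DESeq2 (Ehhadh), 1 with only the 2 groups compared and 1 without Dox libraries 2 and 3 (Acaa1b in both), and ranged from 0 to 1 when 1 library was left out, with 1 (Acaa1b) without Dox library 2. In Dox against Tc it was 2 with DESeq2 and ranged from 0 to 7 when 1 library was left out, with 7 without Dox library 1 and 1 without Dox library 2 (11.3% and 1.48% of all genes). With the replicate block, the number in Dox against Control was 1 in the fit of all 9 libraries and 0 with only the 2 groups compared. In Tc against Control it was 1 with only the 2 groups compared. In Dox against Tc, deviations of libraries of the same number correlated (r = 0.182 to 0.321), but the labels do not say that they were paired. Both blocked fits called 0 there, as the fit without the block did. Fabp1 reversed in Dox against Control, from -1.11 to 1.10 without Dox library 2 (leaving out 1 library at a time gave -2.37 to 1.10) and to 1.40 without Dox libraries 2 and 3, and its sign also turned with no library left out, to 0.55 with DESeq2 and 0.54 with edgeR. Ehhadh lost its call with Dox under 13 of 24 alternatives and Acot1 under 6 of 24, always in the same direction. The pseudocounts 0.1 and 8, a mean of at least 50, edgeR with all 9 libraries, the same total per library and no fold change limit kept each number within 1.5 times. Over the 14 genes given in full and 3 comparisons, 923 of 1008 values kept their direction and their side of the threshold or, with no call, stayed within 1 SE, 40 moved by more than 1 SE without a call, 24 gained a call, 19 lost it and 2 reversed. The causes of these changes were not tested, apart from the smaller number of libraries in fits that leave libraries out. With libraries 3 close to sums of the others, each group holds little more than 2 independent livers, which limits what any of these tests can show. Whether counting depth also limits them was not tested.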

Other observations

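Some genes outside the 35 followed the same libraries as Acaa1b, which was above the controls in Dox libraries 1 and 3 and all Tc libraries and below them in Dox library 2. They were chosen after their values were seen, and no test was made of the likeness. Cat, the catalase of peroxisomes, had 14266, 15424 and 16758 normalized counts in control libraries 1, 2 and 3, 35542, 3524.5 and 22708 with Dox and 32014, 16829 and 22096 with Tc. Scp2, which encodes a sterol carrier and peroxisomal thiolase, had 4835, 8743 and 6698 normalized counts in control libraries 1, 2 and 3, 19752, 1999 and 12781 with Dox and 18426, 5863 and 12963 with Tc. Both were highest in library 1 of each drug group and lowest in Dox library 2, and Tc library 2 was close to the control range. Neither passed in Dox against Control (limma adjusted p = 0.926 and 0.839).

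Another gene was high in Dox library 2 together with Angptl4 and Cyp4a14. Lpin1, a phosphatidate phosphatase and coactivator of PPAR-alpha, had 6277, 3994 and 5235.5 normalized counts in control libraries 1, 2 and 3, 2256.5, 20303 and 8487 with Dox and 7596, 3072 and 5585 with Tc. Fgf21, a hormone gene that PPAR-alpha raises on fasting, was below the filter, with at most 12.4 normalized counts in any library.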
